A study of Mus musculus with 8 samples.

Results

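Fc receptors are the proteins through which a macrophage recognises antibody, and the genes described here are Fcgr1, Fcgr3, Fcgr4, Fcer1g, Fcgr2b, Fcgrt and Fcrls. They were chosen by symbol, as the receptors for immunoglobulin G (IgG), their shared signalling chain, the IgG transport receptor and an Fc receptor-like gene, and are 7 of the 17492 genes in the deposited table. RNA was sequenced from bone marrow-derived macrophages of C57BL/6 mice, cells grown in culture from marrow precursors. In 4 libraries the cells had been kept in medium without serine and glycine (serine/glycine-free), and in 4 control libraries they had been kept in normal medium. The sources used here do not give any stimulus, the length of the withdrawal, or the sex and age of the mice. They also leave unsaid whether the 4 libraries of a group were separate cultures or animals, so the p-values reflect only the scatter among these libraries, possibly a technical one.

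Antibody bound to a particle clusters the activating receptors, which in the mouse are products of Fcgr1, Fcgr3 and Fcgr4. These carry no signalling motif of their own and depend on the chain made by Fcer1g, whose tyrosine motif is phosphorylated by Src-family kinases and then recruits the kinase Syk. The product of Fcgr2b binds the same antibodies but carries an inhibitory motif that recruits the lipid phosphatase made by Inpp5d, and the balance between the activating and the inhibitory receptors sets the threshold at which a macrophage engulfs its target or releases mediators. The comparison examined here is how transcripts of these receptors, activating against inhibitory, differed when serine and glycine were withheld.

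Library totals lay between 17565291 and 18201599 estimated counts. Of the 17492 genes, 11700 passed the filter on low counts and were tested with edgeR, and 3882 of them (33.2%) passed an adjusted p of 0.05. Of these, 1855 were higher and 2027, or 17.3% of those tested, were lower in serine/glycine-free macrophages. The median log2 change of all tested genes was 0.0074. The libraries had high transcripts of the macrophage markers Adgre1, Csf1r, Cd68, Lyz2, Mertk, Itgam, Cd14 and Mrc1, whose summed level lay between 18850 and 19140 CPM without serine and glycine and between 18880 and 19350 CPM in control. Each of the 8 markers passed the test, 4 higher and 4 lower, with log2 changes that ran from -0.61 for Itgam to 0.41 for Csf1r. CPM is a gene's count as a rate of the scaled library total. CPM values compare a gene between libraries, and TPM values, which are per length, compare genes with each other. All log2 changes are serine/glycine-free over control.

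All 7 Fc receptor genes were tested. Fcgr1, Fcgr3, Fcgr4, Fcgr2b and Fcrls fell in serine/glycine-free macrophages, 5 of 7 where 17.3% of all tested genes fell, and none rose. In these 5 genes the groups did not overlap, which held for 30.6% of the tested genes in either direction and for 16.2% in the lower one. These shares were not matched for expression level, and they include genes with low counts, where small changes are harder to call. By mean TPM in control, Fcrls, Fcgr4, Fcgr3, Fcgr1 and Fcgr2b lay above 99.1%, 97.6%, 97.3%, 86.0% and 65.5% of tested genes. Fcer1g and Fcgrt did not pass the test. The size of the change differed within the family. Fcgr4, Fcrls and the inhibitory Fcgr2b fell by 37.4%, by 33.0% and by 31.8%, whereas Fcgr1 fell by 9.40% and Fcgr3 fell by 7.91%. In these bulk samples, fewer cells that carry a transcript and less of it per cell cannot be told apart.

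**Figure D1:**
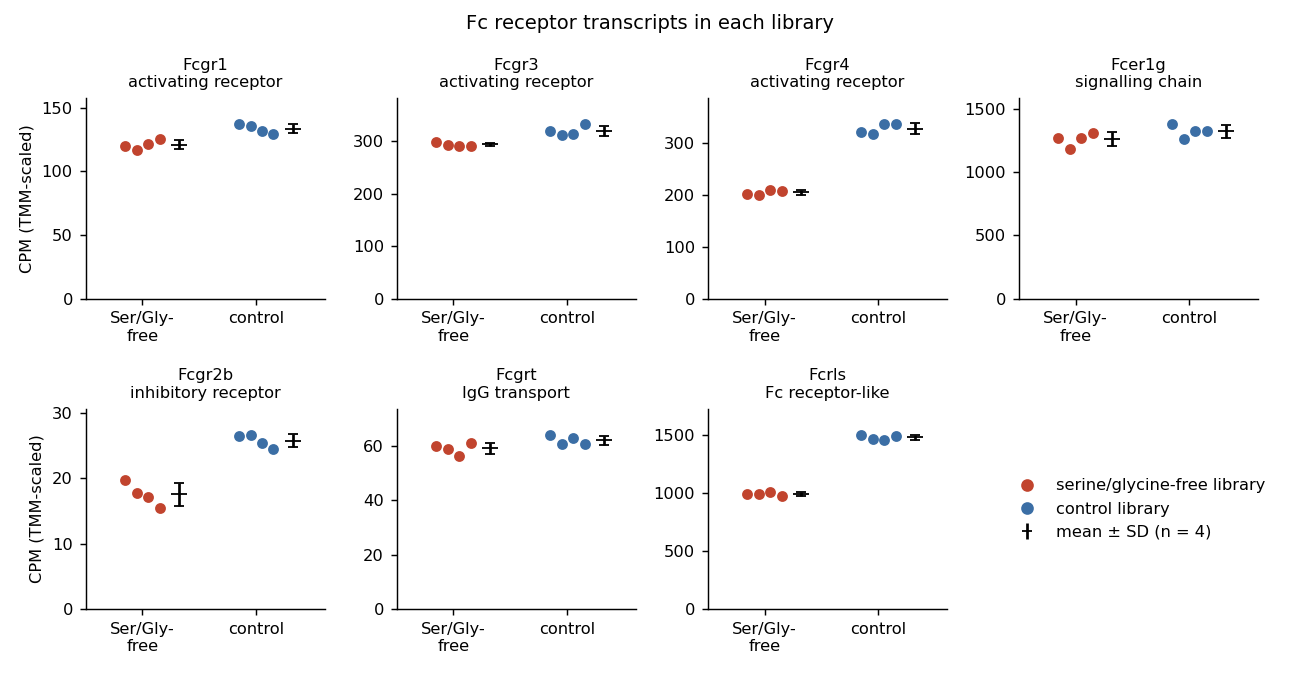
Level of each Fc receptor gene in CPM (linear axes from 0), with the 4 serine/glycine-free libraries on the left and the 4 control libraries on the right of each panel, and mean ± SD beside them. Fcgr4 sits between 199.8 and 209.8 CPM without serine and glycine, below all control libraries (316.9 to 336.9 CPM), while the groups of Fcer1g and Fcgrt overlap.

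Fcgr4 encodes an activating receptor for IgG found on mouse macrophages, monocytes and neutrophils. It had 202.9, 199.8, 209.8 and 208.8 CPM in the serine/glycine-free libraries, against 322.2, 316.9, 336.7 and 336.9 CPM in the control libraries. Every serine/glycine-free library lay far below every control library, and the libraries of each group lay close together. The log2 change was -0.68 (SE 0.028, 95% interval -0.73 to -0.62, edgeR quasi-likelihood test, adjusted p = 1.44e-23). No other member had a larger change in size.

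Fcgr1 encodes the high-affinity IgG receptor, which can hold monomeric antibody. It had 120.1, 116.9, 121.8 and 125.4 CPM without serine and glycine, against 137.1, 136.0, 131.7 and 129.5 CPM in control. The groups did not overlap, although the highest serine/glycine-free library came close to the lowest control library. The log2 change was -0.14 (SE 0.031, 95% interval -0.21 to -0.08, edgeR adjusted p = 0.000302).

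Fcgr3 encodes a low-affinity activating receptor that binds immune complexes. Its level was 299.4, 293.6, 292.0 and 291.5 CPM in serine/glycine-free macrophages and 319.0, 312.4, 313.5 and 332.8 CPM in control macrophages. Again the groups did not overlap, with control replicate 4 the highest. The log2 change was -0.12 (SE 0.026, 95% interval -0.17 to -0.07, edgeR adjusted p = 0.000328).

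Per length, the 3 activating receptors together gave 848.7 ± 12.1 TPM without serine and glycine and 1118 ± 26.3 TPM in control (SD, n = 4 each). The make-up of this pool differed. Fcgr4 made up 39.0 ± 0.60% of it in serine/glycine-free and 48.4 ± 0.76% in control macrophages, and Fcgr3 made up 50.6 ± 0.78% and 42.7 ± 0.65% in the same groups (SD, n = 4 each). In each library without serine and glycine, Fcgr3 was the most abundant of the 3, with a mean of 429.6 TPM against 331.0 TPM for Fcgr4. In each control library the order was the other way round, with means of 541.5 TPM for Fcgr4 and 477.0 TPM for Fcgr3.

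Fcer1g, the signalling chain of these receptors, was the most abundant member in both groups. It had 1270, 1182, 1273 and 1312 CPM in the serine/glycine-free libraries, against 1380, 1261, 1324 and 1326 CPM in the control libraries. The groups overlapped, since the lowest control library lay below 3 of the libraries without serine and glycine. Its log2 change was -0.07 (SE 0.029, 95% interval -0.13 to -0.01) and missed the threshold (edgeR adjusted p = 0.0680). The call depended on the setting: the adjusted p was 0.00311 with no filter on low counts, 0.0295 with the replicate number as a block, 0.0293 without serine/glycine-free replicate 4 and 0.0116 without control replicate 2. Fcer1g has the shortest effective length of the members, 510.4 bases, and once each library's trend with gene length was removed its log2 change was -0.17 (adjusted p = 1.16e-10). Per transcript of the 3 activating receptors there were 5.16 ± 0.17 Fcer1g transcripts without serine and glycine and 4.22 ± 0.15 in control (ratio of TPM, SD, n = 4 each). The length trend was not removed from this ratio, so its size may depend on that trend.

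Fcgr2b encodes the inhibitory receptor and was the least abundant member, at 24.1 ± 2.81 TPM in serine/glycine-free and 36.5 ± 1.48 TPM in control macrophages (SD, n = 4 each). It had 19.7, 17.8, 17.1 and 15.5 CPM without serine and glycine, against 26.4, 26.6, 25.4 and 24.5 CPM in control. The groups did not overlap, and the serine/glycine-free libraries were the more spread out, with replicate 4 the lowest. The log2 change was -0.55 (SE 0.062, 95% interval -0.68 to -0.43, edgeR adjusted p = 6.79e-10).

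These values rest on summed estimated counts of 1259 without serine and glycine and 1843 in control, and on how reads were shared out between Fcgr2b and its neighbour Fcgr3, whose extracellular parts are nearly the same at the level of bases. Aligned along their coding sequences, Fcgr2b and Fcgr3 were identical at 86.5% of 785 bases, with an unbroken identical run of 129 bases. The other pairs among Fcgr1, Fcgr2b, Fcgr3 and Fcgr4 were identical at 60.7% to 66.3% of aligned bases, with runs of 9 to 14 bases. The stretch of 180 coding bases around the long run shows how little separates the transcripts; it covers coding bases 252 to 431 of Fcgr2b and 237 to 416 of Fcgr3 in GENCODE M21 on GRCm38, written 5′ to 3′ in the direction of the transcript, with the 3 bases at which Fcgr3 differs in capitals.
Fcgr2b: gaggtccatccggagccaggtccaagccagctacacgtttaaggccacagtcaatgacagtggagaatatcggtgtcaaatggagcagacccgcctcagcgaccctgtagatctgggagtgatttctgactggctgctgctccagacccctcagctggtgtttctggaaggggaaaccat
Fcgr3: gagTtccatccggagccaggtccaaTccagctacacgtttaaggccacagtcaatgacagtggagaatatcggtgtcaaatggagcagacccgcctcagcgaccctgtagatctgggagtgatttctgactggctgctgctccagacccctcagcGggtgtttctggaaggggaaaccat
Of all 50-base windows of Fcgr3's transcripts, 12.8% occur in Fcgr2b transcripts, and of those of Fcgr2b 4.75% occur in Fcgr3 transcripts. For each of the other pairs the share was 0%. The estimated counts of both genes were fractional in 2 of the 8 libraries, with 307.4 for Fcgr2b and 5245.6 for Fcgr3 in serine/glycine-free replicate 3, and 435.12 for Fcgr2b and 5918.88 for Fcgr3 in control replicate 4. In the other 6 libraries both were whole. With the counts of both genes summed, the log2 change was -0.15 (edgeR adjusted p = 1.14e-05), a sum made up mostly of Fcgr3. The separate values for Fcgr2b and Fcgr3 are therefore uncertain as far as the counting may have moved reads between them.

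**Figure D2:**
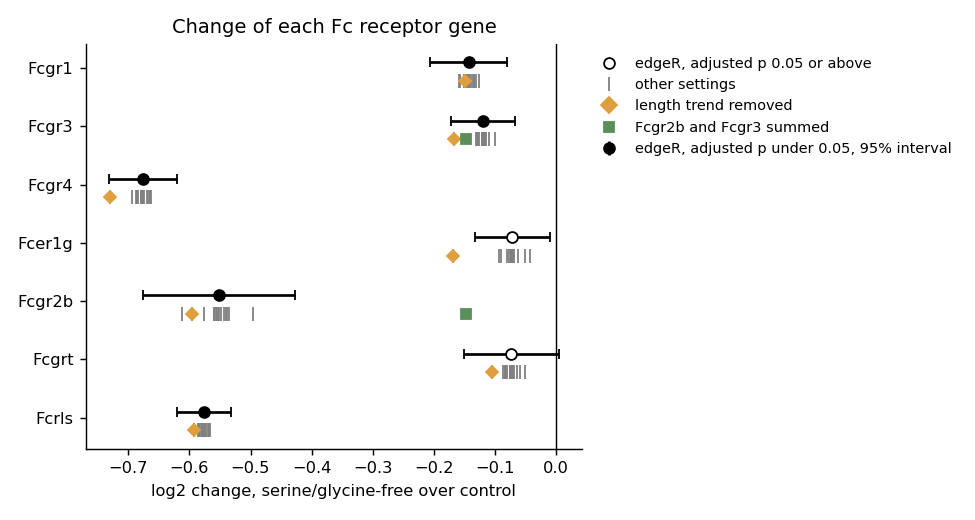
Log2 change of each member (black, with its 95% interval; open where the adjusted p was 0.05 or above) and, below it, its values under the other settings, with the removal of the length trend as a diamond and the sum of Fcgr2b and Fcgr3 as a square. All values lie below 0, Fcgr4, Fcgr2b and Fcrls lie apart from Fcgr1 and Fcgr3, and the summed value of -0.15 lies near Fcgr3.

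The activating receptors were then set against the inhibitory one within each library. Fcgr1 transcripts per Fcgr2b transcript, as a ratio of TPM, numbered 3.23, 3.47, 3.75 and 4.34 in the serine/glycine-free libraries, against 2.72, 2.68, 2.72 and 2.79 in the control libraries. Each ratio without serine and glycine lay above each control ratio. For Fcgr3 per Fcgr2b the ratios were 16.1, 17.4, 18.1 and 20.2 without serine and glycine, against 12.7, 12.4, 13.0 and 14.4 in control. Here too the groups did not overlap. The tests used log2 ratios of CPM. Their difference was 0.42 for Fcgr1 and 0.44 for Fcgr3. Each had p = 0.0286 in a two-sided exact permutation test over 70 splits, with an adjusted p of 0.0381 over the 4 ratios compared. This p is the smallest that 4 libraries against 4 allow.

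Fcgr4 per Fcgr2b had ratios of 12.06, 13.11, 14.31 and 15.97 in serine/glycine-free macrophages and 14.16, 13.84, 15.45 and 16.08 in control macrophages. These groups overlapped. The difference of the log2 ratios of CPM was -0.12 (two-sided exact permutation test, p = 0.314, adjusted p = 0.314). The 16 pairwise differences between libraries ran from -0.42 to 0.18. This range is a 97.1% interval for a shift between the groups, based on the order of the libraries. It was not derived from the permutation test, which compared means. A difference of the size seen for Fcgr1 or Fcgr3 in the upward direction lay outside this range. Fcer1g per Fcgr2b had ratios of 162.8, 167.3, 187.6 and 215.8 without serine and glycine, against 131.0, 119.1, 131.9 and 136.7 in control. The groups did not overlap, with a log2 difference in CPM of 0.49 (two-sided exact permutation test, p = 0.0286, adjusted p = 0.0381). The length trend was not removed from these values.

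The summed activating receptors per Fcgr2b transcript came to 35.5 ± 3.86 in serine/glycine-free and 30.7 ± 1.95 in control macrophages (ratio of TPM, SD, n = 4 each). With ratios of 31.4 to 40.5 without serine and glycine and 28.9 to 33.3 in control, the groups overlapped. All these ratios share the Fcgr2b count as denominator, so the spread of that gene enters each of them. With Fcgr2b and Fcgr3 summed as the denominator, the log2 difference was 0.0048 for Fcgr1 (two-sided exact permutation p = 0.971), 0.076 for Fcer1g (p = 0.143) and -0.53 for Fcgr4 (p = 0.0286, adjusted p = 0.0857 over 3 ratios). The higher ratios of Fcgr1 and Fcer1g were not seen with that denominator, which was mostly Fcgr3. In CPM, Fcgr3 had 294.1 without serine and glycine and 319.4 in control, against 17.5 and 25.7 for Fcgr2b. The summed denominator therefore cannot decide the ratios to Fcgr2b alone.

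**Figure D3:**
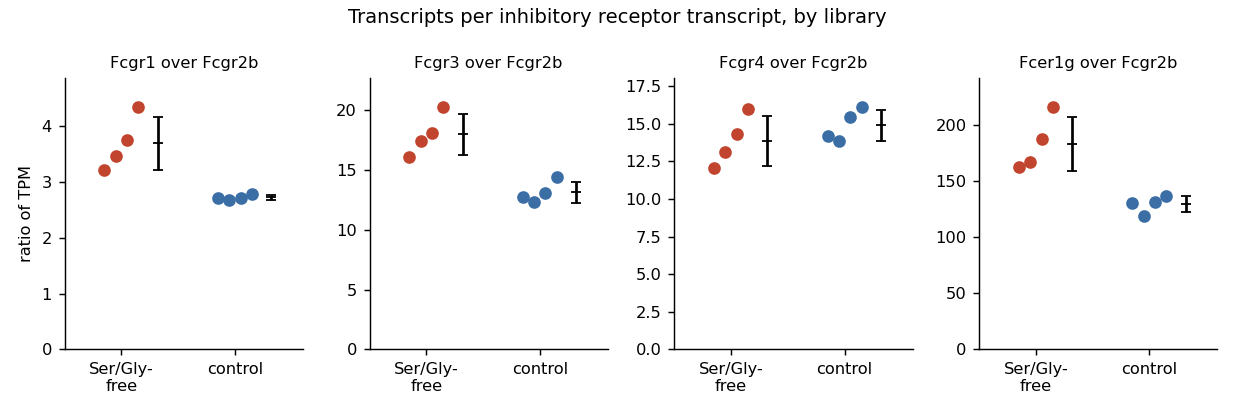
Transcripts of Fcgr1, Fcgr3, Fcgr4 and Fcer1g per Fcgr2b transcript in each library (ratio of TPM, linear axes from 0), serine/glycine-free on the left and control on the right, with mean ± SD. The groups are apart for Fcgr1, Fcgr3 and Fcer1g and overlap for Fcgr4, whose log2 difference in CPM was -0.12.

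Fcgrt encodes the heavy chain of the neonatal Fc receptor, which returns IgG from endosomes to the cell surface and so protects it from breakdown. It had 60.0, 58.8, 56.3 and 60.9 CPM in serine/glycine-free libraries, against 64.0, 60.6, 62.7 and 60.8 CPM in control libraries. The groups overlapped. The log2 change was -0.07 (SE 0.039, 95% interval -0.15 to 0.01, edgeR adjusted p = 0.150). Removing the length trend gave -0.10, with an adjusted p of 0.0197. B2m, the light chain of this receptor and of class I histocompatibility molecules, had a log2 change of 0.06 (adjusted p = 0.108). B2m passed with library size alone (adjusted p = 0.0398), without serine/glycine-free replicate 2 (0.0152) and without control replicate 1 (0.0159), and removal of the length trend turned its sign, to -0.02.

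Fcrls encodes an Fc receptor-like protein with a scavenger receptor domain, and is best known as a transcript of mouse microglia, the macrophages of the brain. It was the second most abundant member, at 868.4 ± 26.8 TPM in serine/glycine-free and 1321 ± 9.47 TPM in control macrophages (SD, n = 4 each). Its level was 994.2, 997.8, 1010 and 974.3 CPM without serine and glycine, against 1504, 1468, 1462 and 1497 CPM in control. All 4 serine/glycine-free libraries lay below all 4 control libraries by a wide gap. The log2 change was -0.58 (SE 0.022, 95% interval -0.62 to -0.53, edgeR adjusted p = 1.42e-24).

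By mean TPM the members ran Fcer1g, Fcrls, Fcgr3, Fcgr4, Fcgr1, Fcgrt and Fcgr2b without serine and glycine, and Fcer1g, Fcrls, Fcgr4, Fcgr3, Fcgr1, Fcgrt and Fcgr2b in control. No neighbours in either order overlapped between libraries. The members other than Fcgrt made up 0.612 ± 0.010% of all TPM in serine/glycine-free and 0.720 ± 0.015% in control macrophages (SD, n = 4 each).

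Fcgr1, Fcgr3, Fcgr4, Fcgr2b and Fcrls kept their direction and their call in all settings tried for them, left-out libraries included. The sum of Fcgr2b and Fcgr3, counted among these settings, says little of Fcgr2b alone. Other Fc receptor genes went in both directions, although the only rise, that of Fcrl1, did not pass in all settings. Of 13 further genes for receptors of immunoglobulins or relatives of Fc receptors, 12 were in the table and 3 were expressed at a level that could be tested. Fcrl5, an Fc receptor-like gene known from B cells, had 307.1, 299.2, 295.6 and 295.0 CPM in serine/glycine-free libraries and 375.2, 367.2, 383.4 and 385.4 CPM in control libraries. It fell without overlap, with a log2 change of -0.34 (SE 0.026, edgeR adjusted p = 1.44e-14).

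Fcrl1, a B-cell co-receptor gene, had 15.1 ± 0.52 CPM without serine and glycine and 13.2 ± 0.86 CPM in control (SD, n = 4 each). It rose, with a log2 change of 0.20 (edgeR adjusted p = 0.0244), but it no longer passed when serine/glycine-free replicate 3 (adjusted p = 0.0859), control replicate 1 (0.0588) or control replicate 2 (0.103) was left out. Nor did it pass in DESeq2 (adjusted p = 0.0945) or after removal of the length trend (0.0547). Trim21, the cytosolic IgG receptor that marks antibody-coated particles with ubiquitin, had a log2 change of -0.08 (adjusted p = 0.224).

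Fcgr2b, Fcrl5 and Fcrl1 are also transcripts of B cells, and markers of other cells were read beside them. The 5 B-cell markers read summed to 32.1 to 39.0 CPM in serine/glycine-free libraries and 43.5 to 51.2 CPM in control libraries. Nearly all of that was Cd79b, a chain of the B-cell receptor, with 35.0 CPM without serine and glycine and 46.3 CPM in control and a log2 change of -0.41 (edgeR adjusted p = 3.58e-07). Ms4a1, Pax5 and Blk, genes typical of B cells, were each at or below 0.394 CPM in every library, and Cd79a did not exceed 0.956 CPM, where 3 counts correspond to 0.164 to 0.171 CPM. The 10 neutrophil markers, read because neutrophils carry Fcgr3 and Fcgr4, summed to 2.11 to 2.56 CPM without serine and glycine and 0.992 to 1.40 CPM in control. Most of that sum was S100a8, with 1.87 CPM without serine and glycine and 0.755 CPM in control, and 7 of the 10 were at 3 counts or fewer in every library. The part of such cells in the values of Fcgr3 and Fcgr4 was not tested. Markers of mast cells and basophils summed to at most 0.445 CPM, those of natural killer cells to at most 0.334 CPM and those of dendritic cells to at most 1.96 CPM in any library.

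The genes that pair with or act behind the receptors were read from lists of pathway members. The Fcer1g chain also serves other receptors, of which 7 were tested. Clec4d and Clec4e, C-type lectin receptors that sense mycobacterial glycolipid, rose, and the other 5 did not pass. Of all tested genes 15.9% rose and 17.3% fell, so rises in 2 of 7 are not read as a trait of this list. Clec4d had 448.1, 431.2, 459.6 and 450.8 CPM in serine/glycine-free libraries, against 240.3, 241.0, 249.4 and 266.2 CPM in control libraries. The groups lay far apart, with a log2 change of 0.84 (SE 0.029, edgeR adjusted p = 6.96e-24). Clec4e averaged 53.6 ± 1.56 CPM without serine and glycine and 38.0 ± 1.21 CPM in control (SD, n = 4 each), a log2 change of 0.50 (adjusted p = 4.28e-13). Pira2, a paired immunoglobulin-like receptor, had a log2 change of -0.09 (adjusted p = 0.172). Tyrobp, a different adaptor with the same type of motif, rose with a log2 change of 0.19 (adjusted p = 1.46e-07), or 0.08 after removal of the length trend (adjusted p = 0.00102). Receptors served by the same chain thus differed in direction, with Fcgr4 lower and Clec4d higher.

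Of the kinases that act first behind activating receptors, 7 were tested. Lyn, Syk, Btk and Fyn fell, Tec rose, and Fgr and Src did not pass, where 17.3% of all tested genes fell and 15.9% rose. Lyn averaged 775.9 ± 8.75 CPM in serine/glycine-free and 945.2 ± 4.98 CPM in control macrophages (SD, n = 4 each), a log2 change of -0.28 (edgeR adjusted p = 2.56e-14). Syk, which binds the phosphorylated chain, averaged 889.5 ± 16.5 CPM without serine and glycine and 943.4 ± 8.05 CPM in control (SD, n = 4 each), a log2 change of -0.08 (adjusted p = 0.00259). After removal of the length trend Syk had -0.04 and did not pass (adjusted p = 0.0834). Tec, a relative of Btk, had a log2 change of 0.26 (adjusted p = 7.28e-06). The median log2 change of the kinases was -0.08.

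Among 18 adaptors and second messenger enzymes, 6 fell, 3 rose and 9 did not pass, with a median log2 change of 0.0045. Among all tested genes 17.3% fell and 15.9% rose, with a median of 0.0074, close to that of this list. The catalytic and the regulatory subunit of phosphoinositide 3-kinase made by Pik3cd and Pik3r1 fell by 0.41 and by 0.24 on the log2 scale (edgeR adjusted p = 3.79e-16 and 4.58e-09). Lcp2, the adaptor that gathers phospholipase and Vav proteins, fell by 0.29 (adjusted p = 4.49e-12). Pik3cb, which makes another catalytic subunit, changed by 0.29 on the log2 scale (adjusted p = 1.70e-07) and is named here after its value was seen.

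Of 27 genes that build the phagocytic cup, the actin-rich fold that encloses a target, 14 fell, 2 rose and 11 did not pass, with a median log2 change of -0.09. For comparison, 17.3% of all tested genes fell and 15.9% rose. Rac2, a GTPase that drives actin assembly, fell by 0.31 on the log2 scale (edgeR adjusted p = 1.18e-15). The unconventional myosins went in both directions. Myo1g fell by 0.35 on the log2 scale (adjusted p = 2.06e-13), whereas the change of Myo1f was 0.36 (adjusted p = 7.85e-16).

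The inhibitory side was read in the same way. Of 13 phosphatases, adaptors and ubiquitin ligases that restrain the receptors, 8 fell, 1 rose and 4 did not pass, with a median log2 change of -0.15. Ptpn6, a tyrosine phosphatase, fell by 0.19 (edgeR adjusted p = 3.92e-09), Csk, the kinase that holds Src-family kinases inactive, fell by 0.19 (adjusted p = 8.83e-08), and Dok3, an inhibitory adaptor, fell by 0.22 (adjusted p = 6.33e-07). Inpp5d, the phosphatase recruited by the Fcgr2b product, fell by 0.12 (adjusted p = 0.000251). Of the 65 tested genes in the kinase, adaptor, phagocytic cup and inhibitory lists together, 32 fell, 7 rose and 26 did not pass, with a median log2 change of -0.09. Over all tested genes 17.3% fell and 15.9% rose, with a median of 0.0074. Falls were the more frequent call on the activating side, in 24 of 52 genes, and on the inhibitory side, in 8 of 13 genes. The list counts were not repeated with the length trend removed, after which Syk no longer passed, so small falls may depend on that trend.

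**Figure D4:**
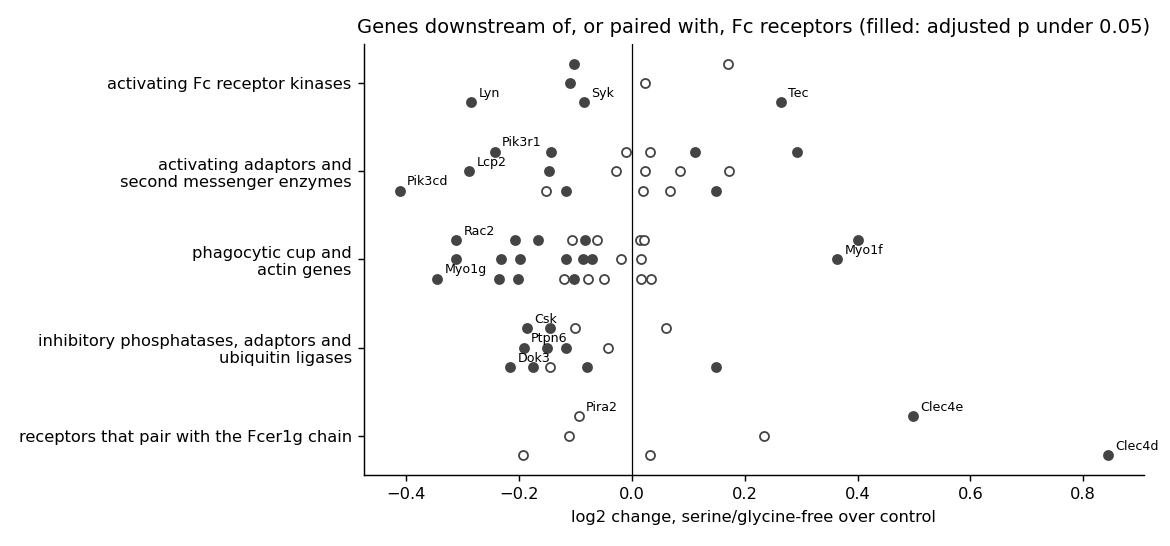
Log2 change (horizontal axis) of each tested gene in 4 signalling lists and in the list of receptors that pair with the Fcer1g chain, filled where the adjusted p was under 0.05; the vertical offsets within a list only separate points. Most filled points of the signalling lists lie left of 0, with Tec and Myo1f on the right, while Clec4d and Clec4e lie at 0.84 and 0.50.

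The receptor genes lie at separate places in the genome (GRCm38.p6). Fcgr2b (chr1:170960558-170976071, minus strand), Fcgr4 (chr1:171018926-171029761, plus strand) and Fcgr3 (chr1:171051169-171065915, minus strand) span 105.4 kb of chromosome 1, and Fcer1g (chr1:171229572-171234349, minus strand) begins 163.7 kb beyond Fcgr3. Fcrls (chr3:87250736-87263765, minus strand) and Fcgr1 (chr3:96282909-96293969, minus strand) are on chromosome 3, and Fcgrt (chr7:45092993-45103822, minus strand) is on chromosome 7. All are annotated as protein-coding. Fcgr4 lies between Fcgr2b and Fcgr3, so along the cluster the log2 changes were -0.55, -0.68 and -0.12.

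Calls near the receptor genes are set beside those over all tested genes, of which 17.3% fell and 15.9% rose. Within 300 kb of the chromosome 1 receptor genes, 23 other genes were tested. Of these, 5 fell, 2 rose and 16 did not pass, with a median log2 change of -0.02. The falls were those of Atf6, a sensor of protein folding stress (-0.28), the predicted gene Gm39701 (-0.31), the adhesion gene Nectin4 (-0.28), the GTPase regulator Arhgap30 (-0.16) and the transcription factor gene Usf1 (-0.19). Pcp4l1 (0.54) and F11r, a junction adhesion gene (0.39), rose. No other gene of this region had a fall as large as that of Fcgr2b or Fcgr4. Around Fcrls, in a window chosen after values were seen, 6 other genes were tested. Cd5l, a secreted macrophage protein gene, fell by 0.25 (edgeR adjusted p = 2.97e-10) beside Fcrl5, Fcrl1 rose as given above, and the other 3 did not pass. The opposite calls of Fcrl1 and Fcrl5 stand 31.8 kb apart, and that of Fcrl1 did not hold in all settings.

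**Figure D5:**
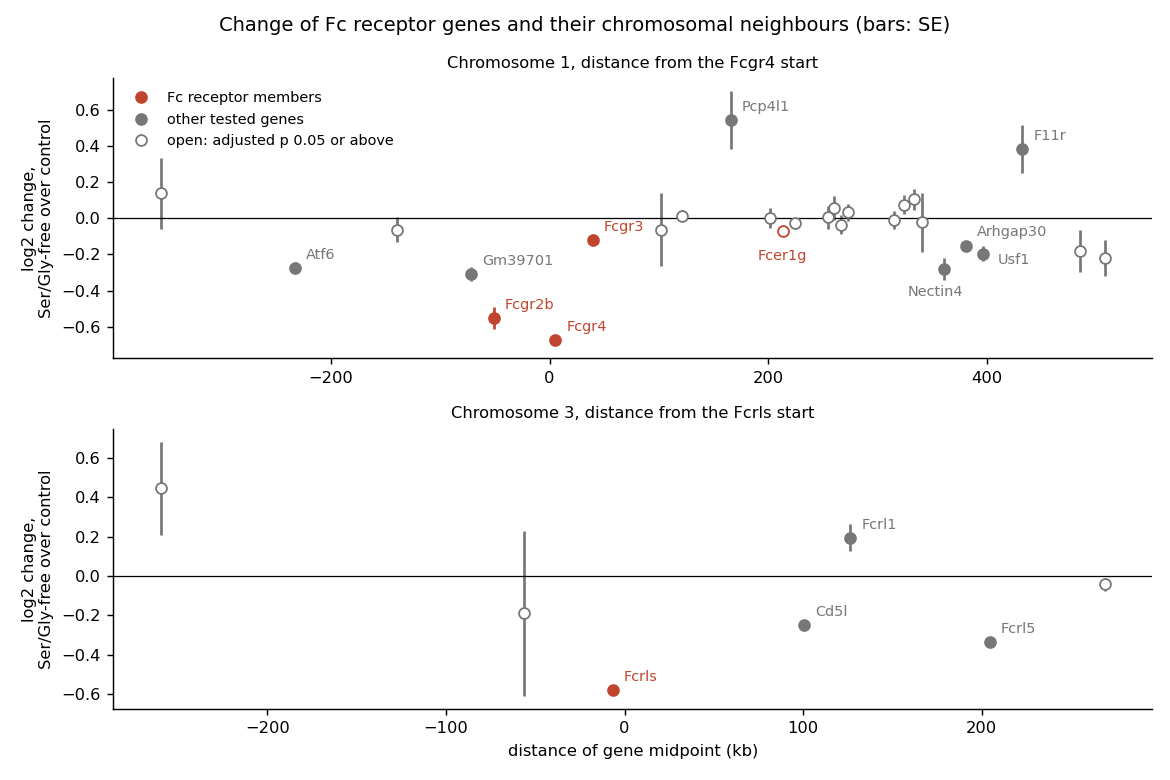
Log2 change with SE of each tested gene within 300 kb of the chromosome 1 receptor genes (top) and of Fcrls (bottom), against the distance of its midpoint from the Fcgr4 or Fcrls start in kb; red marks members and open points an adjusted p of 0.05 or above. Fcgr2b and Fcgr4 lie below their neighbours, at -0.55 and -0.68, and Fcrls lies lowest in its region.

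The promoters of Fcgr4, Fcrls and Fcgr2b, the members with the largest falls, are shown beside that of Fcgr1, which fell less, each from 250 bases before to 50 bases after the start in RefSeq (GRCm38.p6), written 5′ to 3′ on the strand of the gene. All 7 members had an entry in that table. Capitals mark 3 motifs searched on both strands: GAGGAA, a core bound by the macrophage factor PU.1, TTCNNNGAA, the form bound by STAT factors after interferon, and GAAA followed by any pair of bases and a second GAAA, the form bound by interferon regulatory factors. In the promoters printed no matches overlapped one another. The windows are chr1:171018676-171018975 on the plus strand for Fcgr4, and chr3:87263475-87263774 for Fcrls, chr1:170976022-170976321 for Fcgr2b and chr3:96293920-96294219 for Fcgr1 on the minus strand.
Fcgr4: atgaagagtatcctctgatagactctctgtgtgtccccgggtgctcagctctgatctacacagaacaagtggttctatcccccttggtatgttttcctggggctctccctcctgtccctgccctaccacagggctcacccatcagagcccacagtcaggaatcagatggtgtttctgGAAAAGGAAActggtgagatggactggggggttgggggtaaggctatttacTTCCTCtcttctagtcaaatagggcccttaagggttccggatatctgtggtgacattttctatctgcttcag
Fcrls: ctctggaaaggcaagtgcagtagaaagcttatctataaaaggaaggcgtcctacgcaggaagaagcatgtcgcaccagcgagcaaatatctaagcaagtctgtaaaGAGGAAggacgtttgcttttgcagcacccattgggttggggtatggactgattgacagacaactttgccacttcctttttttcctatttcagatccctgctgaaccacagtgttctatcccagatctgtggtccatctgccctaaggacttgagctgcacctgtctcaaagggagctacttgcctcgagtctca
Fcgr2b: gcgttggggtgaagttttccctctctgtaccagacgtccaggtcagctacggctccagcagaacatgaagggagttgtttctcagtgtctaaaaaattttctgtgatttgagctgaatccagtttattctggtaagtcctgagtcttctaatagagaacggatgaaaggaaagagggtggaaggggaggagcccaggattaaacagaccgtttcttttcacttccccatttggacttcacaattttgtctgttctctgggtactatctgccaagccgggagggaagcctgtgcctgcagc
Fcgr1: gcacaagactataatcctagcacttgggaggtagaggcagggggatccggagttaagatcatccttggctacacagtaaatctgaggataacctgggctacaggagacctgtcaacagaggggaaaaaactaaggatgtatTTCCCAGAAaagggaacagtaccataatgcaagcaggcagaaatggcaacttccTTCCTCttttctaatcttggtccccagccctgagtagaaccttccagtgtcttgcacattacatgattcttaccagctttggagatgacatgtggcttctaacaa
The letters GAGGAA occurred in 4 of 7 members, beginning 22 bases before the start in Fcgr4, 144 in Fcrls, 55 in Fcgr1 and 6 in Fcgr3, and in 28.3% of 27018 mouse promoters of the same length. TTCNNNGAA occurred in Fcgr1, beginning 109 bases before the start, and in 8.47% of promoters. The paired GAAA occurred in Fcgr4, beginning 73 bases before the start, and in 3.49% of promoters. The Fcgr2b window held none of these letters. The matches describe sequence and were not tested as sites.

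The genes whose patterns over the 8 libraries lay nearest to each receptor were found by the Euclidean distance between mean-centred log2 CPM, among the 9560 genes that averaged 5 CPM or more. The difference between the groups is part of this distance. Similar log2 changes therefore follow from how these genes were picked and are no separate result. Nearest to Fcgr4 were Rasgrp1 (distance 0.097), Cnn2 (0.126) and Zbp1 (0.135), with log2 changes of -0.68, -0.73 and -0.73. Nearest to Fcgr2b were Gcnt1 (0.146), Raver2 (0.214) and Stx11 (0.223), with log2 changes of -0.49, -0.58 and -0.59. Nearest to Fcgr1 were Anxa2 (0.035), Nucks1 (0.050) and Ap2m1 (0.051), and nearest to Fcgr3 were Xrn2 (0.047), Sav1 (0.062) and Tnfaip8 (0.063). The distances of Fcgr2b were the largest of the 4 receptors, and its counts were the lowest. No receptor was among the 3 genes nearest to another.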

How the data were processed

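Fc receptor genes were read from RNA sequencing of mouse bone marrow-derived macrophages, in 4 serine/glycine-free and 4 control libraries; polyadenylated RNA was taken with oligo-dT beads according to the labels' protocols. The authors deposited estimated counts, FPKM and TPM for 17492 genes. The submitters' processing notes name BWA, Bowtie2, RSEM and the build GRCm38.p6; the sources used here do not give versions. Of the deposited estimated counts, 8.06% to 8.47% per library were not whole (tolerance 1e-06); they were rounded and tested. The authors' FPKM gave effective lengths and nothing else. TPM, deposited by the authors, compare genes per length. The table's 6 averaged columns were left out.

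Genes were filtered (minimum count 10, minimum total 15; 11700 kept), scaled by TMM (trimmed mean of M values) and tested in edgeR 4.0.16 (R 4.3.3) with the robust quasi-likelihood F test, with Benjamini-Hochberg adjustment over all 11700 genes and 6 residual degrees of freedom. Ratios were tested by exact permutation of log2 ratios of CPM, whereas the ratios printed per library are of TPM. Within groups the common coefficient of variation was 2.78%, and in each of 12 library pairs the counts differed beyond counting noise (chi-square per degree of freedom 1.42 to 3.60). A count of 0 allows up to 3 counts, 0.164 to 0.171 CPM per library. Such floors cover counting error only.

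The members and gene lists were chosen with earlier results of these data known. Named genes are the members, the lowest adjusted p values of each list (up to 3 tested genes), the 3 genes nearest in pattern to each IgG receptor, and tested genes within 300 kb of the chromosome 1 receptor genes. Other genes are named as list members behind a count or as chosen after their values were seen. Alternatives were DESeq2 1.42.0, limma-voom 3.58.1, scaling by RLE factors or by library size only, testing unfiltered genes or those averaging 5 CPM or more, a replicate block, each library left out in turn, removal of the trend with effective length in each library, an adjusted p under 0.01, and Fcgr2b and Fcgr3 summed. Some list members are not reported here and are left out of their lists' counts. The steps were tested on simulated data.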

Additional observations from a re-analysis of the deposited data

How the results depend on the processing

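Fcgr1, Fcgr3, Fcgr4, Fcgr2b and Fcrls kept their direction and their side of the threshold under all of their 17 or 18 alternatives. For Fcgr2b and Fcgr3 the 18 include their sum, which is mostly Fcgr3 and says little of Fcgr2b alone. Fcer1g passed the threshold with no filter on low counts (log2 change -0.0795, adjusted p = 0.00311), with the replicate number as a block (-0.0711, adjusted p = 0.0295) and after removal of the length trend (-0.17, adjusted p = 1.16e-10); leaving out 1 library gave -0.0937 to -0.0416. Fcgrt passed in 1 of 17 alternatives, removal of the length trend (-0.10, adjusted p = 0.0197). With Fcgr2b plus Fcgr3 as denominator, which is mostly Fcgr3, the log2 ratio difference of Fcgr1 was 0.0048 and that of Fcer1g 0.076. The cause was not tested in any of these. With 1 library left out the differences were 0.34 to 0.48 for Fcgr1, 0.39 to 0.49 for Fcgr3, 0.41 to 0.54 for Fcer1g and -0.18 to -0.05 for Fcgr4, with no test, and no replicate block was fitted to ratios. Same-numbered libraries had correlations of -0.09 to 0.06 in their deviations from group means. These show no clear shared variation by number, but they cannot exclude a pairing by design, and the sources used here state none. The block passed 1771 genes as higher and 1884 as lower and changed no member's call but that of Fcer1g. An adjusted p under 0.01 passed 2767 genes, DESeq2 3061 and the other alternatives 3384 to 3901. With library size alone, 52.2% of the genes that passed were higher, against 47.8% with TMM; DESeq2 gave 43.6%. Depth limits Fcgr2b most, with summed estimated counts of 1259 in serine/glycine-free and 1843 in control libraries.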

Other observations

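Each member's values and each ratio to Fcgr2b, in each group, were screened for a library far from the other 3. In none of the 22 groups of 4 libraries, 14 of them from the members, did a library stand apart at the 95% level.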
